A study of Mus musculus with 4 samples.

Results

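Expression of 10 squamous cornification genes was read in bulk RNA sequencing of the stomach from WT and *Atp4b-cre; MycOE* mice. The genes, *Trp63*, *Dsg3*, *Dsc3*, *Ivl*, *Lor*, *Sprr1a*, *Sprr1b*, *Sprr3*, *Krtdap* and *Sbsn*, were taken by name as genes of forestomach squamous and cornified epithelium, 10 of the 46095 gene symbols in the count table. All 10 passed the filter on low counts, as did 17643 symbols in all. There were 2 samples of each genotype, all of 12-week-old C57BL/6 mice. In *Atp4b-cre; MycOE* (*Atp4b-cre; Myc fl/+*) mice, whose libraries are labelled MYC-KI, Cre is driven by the *Atp4b* promoter of the parietal cell lineage and turns on a floxed human *c-Myc* transgene, and the WT mice were *Myc fl/fl* littermates that carry the floxed transgene without Cre. The sources do not say which regions of the stomach wall went into each RNA sample.

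The mouse stomach has a glandular part and a forestomach, which is lined by a keratinized stratified squamous epithelium like that of the oesophagus. In such an epithelium, dividing basal cells express the transcription factor p63 and the keratins K5 and K14, and cells that leave the basal layer stop dividing, move upward and build a cornified envelope. This envelope is a shell of involucrin, loricrin and small proline-rich proteins, cross-linked by transglutaminases beneath the membrane, while desmosomes hold the cells together. The glandular mucosa does not cornify, so the level of these genes in stomach RNA can follow both how much forestomach was sampled and how far its cells have differentiated. In these bulk samples fewer squamous cells and less RNA per squamous cell cannot be told apart.

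The 5 envelope precursors are neighbours in the epidermal differentiation complex of chromosome 3. In the mouse build GRCm38 (mm10, the build of the submitters' processing notes) they span 493 kb on the minus strand, with *Lor* at chr3:92080271-92083142, *Sprr1b* at chr3:92436809-92438789, *Sprr3* at chr3:92456502-92458720, *Sprr1a* at chr3:92483952-92485895 and *Ivl* at chr3:92570902-92573735. *Sbsn* (chr7:30751471-30756134) and *Krtdap* (chr7:30787896-30791097) lie 39.6 kb from end to end on the plus strand of chromosome 7. RefSeq promoters of GRCm38.p6, from 250 bases before to 50 after the start, were at hand for these 7 genes. The AP-1 element TGANTCA, the binding sequence of the FOS and JUN factors that act in keratinocyte differentiation, was found in 6 of the 7 (85.7%), all but *Sprr3*, and in 7.81% of the 32851 promoters of the table. In lists of related genes read below it was in 12 of 39 promoters of the rest of the complex (30.8%) and 4 of 20 of envelope assembly. It was in 2 of 9 of squamous layer markers, 1 of 13 of squamous regulators and 0 of 2 of other desmosome genes. *Sprr2a1* and *Sprr2a3* of the complex had 0 matches. All motifs were searched on both strands, and TGANTCA reads the same on both apart from its middle base. The KLF element CACCC was in 6 of the 7 and in 57.5% of all promoters, and the E-box CACGTG, the sequence bound by MYC with MAX, was in 0 of the 7 and in 7.15% of all. A match describes the letters only. The bases upstream of the transcription start are printed for *Ivl*, the only one of the 10 without overlap between the genotypes, for *Sprr1a*, *Lor* and *Krtdap*, and for *Sprr3*, the one without a match. They run 5′ to 3′ on the strand of the gene and stop at the most upstream annotated start, with AP-1 matches in capitals.
Ivl: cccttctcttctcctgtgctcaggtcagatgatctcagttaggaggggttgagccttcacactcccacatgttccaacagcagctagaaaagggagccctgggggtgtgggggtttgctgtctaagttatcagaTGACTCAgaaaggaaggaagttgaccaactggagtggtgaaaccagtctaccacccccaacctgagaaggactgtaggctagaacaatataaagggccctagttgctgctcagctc
Sprr1a: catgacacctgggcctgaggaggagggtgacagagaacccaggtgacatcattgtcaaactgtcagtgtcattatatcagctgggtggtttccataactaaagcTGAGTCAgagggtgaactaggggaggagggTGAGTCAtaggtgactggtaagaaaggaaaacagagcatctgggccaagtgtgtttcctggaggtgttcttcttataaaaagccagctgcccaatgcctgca
Lor: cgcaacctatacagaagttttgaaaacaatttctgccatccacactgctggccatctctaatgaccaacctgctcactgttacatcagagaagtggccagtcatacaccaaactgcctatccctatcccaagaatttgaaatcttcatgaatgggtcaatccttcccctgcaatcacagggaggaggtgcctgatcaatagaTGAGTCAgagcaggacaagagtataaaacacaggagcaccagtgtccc
Krtdap: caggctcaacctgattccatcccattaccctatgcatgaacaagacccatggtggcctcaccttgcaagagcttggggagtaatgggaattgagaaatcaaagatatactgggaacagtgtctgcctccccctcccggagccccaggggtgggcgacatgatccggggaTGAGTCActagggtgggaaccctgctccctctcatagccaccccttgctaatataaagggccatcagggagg
Sprr3: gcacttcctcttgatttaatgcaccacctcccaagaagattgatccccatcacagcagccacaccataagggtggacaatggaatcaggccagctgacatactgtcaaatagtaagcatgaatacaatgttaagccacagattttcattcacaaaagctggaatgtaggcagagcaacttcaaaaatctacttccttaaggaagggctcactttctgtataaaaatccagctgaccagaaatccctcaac
The windows are chr3:92573736-92573985 for *Ivl*, chr3:92485896-92486131 for *Sprr1a*, chr3:92083143-92083392 for *Lor*, chr7:30787655-30787895 for *Krtdap* and chr3:92458721-92458970 for *Sprr3*. The match begins at position -116 from the RefSeq start in *Ivl*, at -146 and -116 in *Sprr1a*, at -48 in *Lor* and at -81 in *Krtdap*.

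The libraries held 30260305 to 41463647 counts. The counts of both MYC-KI columns were matched, row by row, to the symbols in character-code order, on the inference that these counts and the deposited names stand in different orders. The submitters do not state such a difference, and all MYC-KI values below rest on it. Pearson's r between the log2(mean count + 1) of the genotypes, taken across genes and so not over independent replicates, was 0.984 after the re-sorting and 0.526 as deposited. The WT libraries held 1062 and 759 counts of mouse *Myc* and the MYC-KI libraries 735 and 1091 (log2 fold change -0.35, adjusted p = 0.163 from edgeR), and no row of the table is named for the human transgene, so the transgene itself could not be checked. *Xist* had 17846 counts in WT replicate 2 and 85 to 201 in the other libraries, which marks that sample alone as female, and sex and replicate cannot be told apart within WT. Levels are given as CPM, which are counts relative to the TMM-normalized size of each library, and the genotypes were tested in edgeR with its quasi-likelihood method on the whole table.

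None of the 10 genes passed the thresholds of the study's methods, which ask for an adjusted p below 0.05 together with a change of about 1.5-fold or more in either direction. Of all tested genes 10.7% did so, 5.65% higher and 5.08% lower in *c-Myc* transgenic mice. At an unadjusted p-value under 0.05 edgeR gave 1 of the 10 genes, *Ivl*, against 34.1% of all tested genes. DESeq2, the tool of the study, called that gene higher, as it did 8.38% of all genes. The median log2 fold change was 0.44 over the 10 genes and 0.012 over all tested genes, and 9 of the 10 fold changes were above 0. The 2 MYC-KI libraries lay far apart. MYC-KI replicate 2 was the highest library for 9 of the 10 genes, against 22.8% of all tested genes, and exceeded MYC-KI replicate 1 by a median of 3.31-fold. The lowest library was MYC-KI replicate 1 for *Lor*, *Sprr1a*, *Sprr1b*, *Sprr3* and *Sbsn*, and WT replicate 2 for the other 5, and MYC-KI replicate 1 was the lowest for 29.7% of all tested genes. WT replicate 1 exceeded WT replicate 2 by a median of 1.67-fold. Over all tested genes the corresponding medians were 1.0 in both genotypes. Without WT replicate 1 or WT replicate 2 edgeR called 0 of all genes, with 3554 and 3410 genes at an unadjusted p under 0.05, so no call below was made when either WT library was left out. Fits without a MYC-KI library compare 1 transgenic library with the WT pair, which alone gives the spread, and assume that the lone library varies like that pair.

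**Figure D1:**
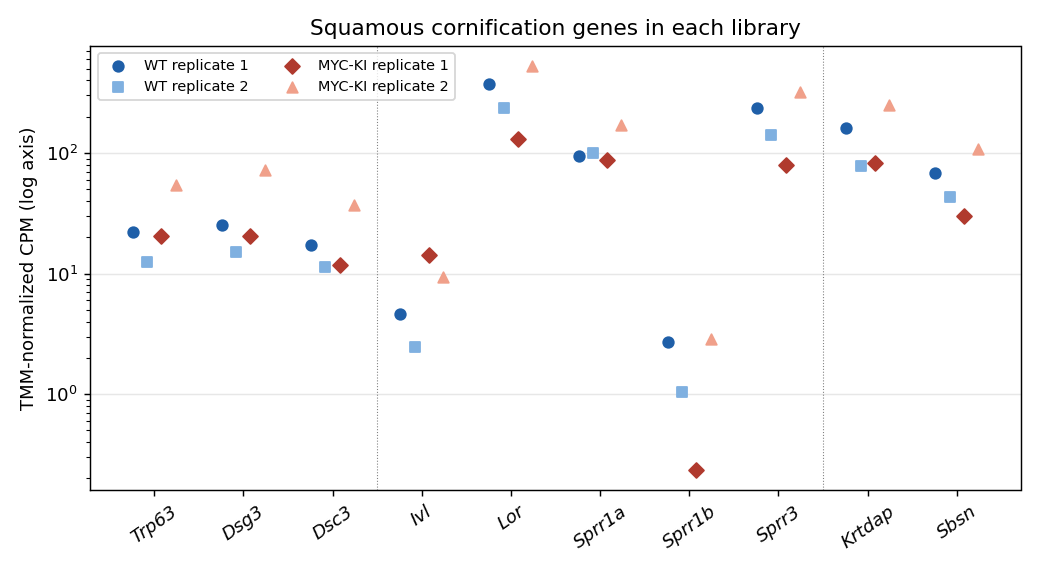
TMM-normalized CPM (log axis) of the 10 genes in each of the 4 libraries, 1 point per library, with basal regulators and adhesion genes on the left, envelope precursors in the middle and secreted proteins on the right. MYC-KI replicate 2 is the highest point of each gene except *Ivl*, for which both MYC-KI points (14.3 and 9.34 CPM) lie above both WT points (4.59 and 2.47).

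*Trp63*, which encodes p63, the factor that specifies and maintains squamous epithelium, lies at chr16:25683763-25892102 on the plus strand. Its full-length and ΔN forms were counted together. It had 22.1 and 12.5 CPM in WT and 20.4 and 54.7 in MYC-KI. The genotypes overlapped, since MYC-KI replicate 1 lay between the WT libraries. The means were 17.3 ± 6.81 and 37.5 ± 24.3 CPM (SD, n = 2 each), which edgeR estimated as 1.12 on the log2 scale (standard error 0.56, adjusted p = 0.244). Without MYC-KI replicate 2 this value was 0.24 and without replicate 1 it was 1.66.

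*Dsg3* (chr18:20510274-20547459, plus strand) and *Dsc3* (chr18:19960930-20002351, minus strand) encode desmoglein 3 and desmocollin 3, the desmosomal cadherins of the basal and lower layers. *Dsg3* had 25.3 and 15.0 CPM in WT and 20.6 and 72.1 in MYC-KI. *Dsc3* had 17.2 and 11.4 in WT and 11.8 and 37.0 in MYC-KI. Both showed the order of *Trp63*, with MYC-KI replicate 1 between the WT libraries and MYC-KI replicate 2 above all. The log2 fold changes were 1.20 for *Dsg3* (standard error 0.66, adjusted p = 0.277) and 0.77 for *Dsc3* (standard error 0.60, adjusted p = 0.421), both from edgeR. With the spread taken from the WT pair alone, *Dsg3* stood at 1.84 without MYC-KI replicate 1 (adjusted p = 0.0431 from edgeR) and at 0.034 without replicate 2, the MYC-KI libraries being 3.49-fold apart. That of *Dsc3* was -0.28 without MYC-KI replicate 2 and 1.37 without replicate 1.

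*Ivl* encodes involucrin, an early scaffold of the envelope and a substrate of transglutaminase. The WT libraries held 154 and 69 counts and the MYC-KI libraries 486 and 417, which were 4.59 and 2.47 CPM in WT and 14.3 and 9.34 in MYC-KI. It was the only one of the 10 genes with both MYC-KI libraries above both WT libraries, an order found in 33.3% of all tested genes. It was also the only one higher in MYC-KI replicate 1 than in replicate 2. The log2 fold change was 1.74 (standard error 0.41), 3.34-fold on the linear scale, with an adjusted p of 0.0654 from edgeR, so it missed the threshold. DESeq2 gave 1.73 with an adjusted p of 0.000853. In edgeR the gene passed when libraries were scaled by their totals alone (1.96, adjusted p = 0.041) and without the filter on low counts (1.75, adjusted p = 0.0182). Leaving out each library in turn gave log2 fold changes of 1.36 to 2.26 and adjusted p-values of 0.0501 to 0.268 from edgeR.

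*Lor* encodes loricrin, the glycine-rich bulk protein of the envelope in the granular layer. It had 374 and 236 CPM in WT and 129 and 525 in MYC-KI, so that the MYC-KI libraries lay on either side of both WT libraries. The means of 305 ± 97.1 and 327 ± 280 CPM (SD, n = 2 each) differed by 0.10 on the log2 scale (standard error 0.70, adjusted p = 0.934 from edgeR). Without MYC-KI replicate 2 the log2 fold change was -1.24 and without replicate 1 it was 0.79.

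The small proline-rich proteins cross-bridge the envelope. *Sprr3* had 235 and 142 CPM in WT and 79.7 and 320 in MYC-KI, the same order of libraries as *Lor*, and the genotypes differed by 0.084 on the log2 scale (standard error 0.70, adjusted p = 0.946 from edgeR). *Sprr1a* had 94.6 and 99.8 CPM in WT and 87.7 and 169 in MYC-KI. The MYC-KI replicate 1 value lay just under those of WT, and MYC-KI replicate 2 stood above the other libraries. The log2 fold change was 0.40 (standard error 0.33, adjusted p = 0.445 from edgeR). With the spread taken from the WT pair alone, whose values were close, it was 0.80 without MYC-KI replicate 1 (adjusted p = 0.0264 from edgeR) and -0.15 without replicate 2, the MYC-KI libraries being 1.93-fold apart. *Sprr1b* was scarce. Its counts were 91 and 29 for WT but 8 and 129 for MYC-KI, a 12.2-fold gap in CPM between the 2 transgenic libraries. No change by genotype was called in *Sprr1b* (log2 fold change -0.26, standard error 1.19, adjusted p = 0.902 from edgeR). Its fold change was -2.98 without MYC-KI replicate 2 and 0.62 without replicate 1.

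*Krtdap* and *Sbsn* encode keratinocyte differentiation-associated protein and suprabasin, secreted products of the suprabasal layers. *Krtdap* had 161 and 78.3 CPM in WT and 83.3 and 249 in MYC-KI. *Sbsn* had 67.8 and 43.0 CPM in WT and 29.8 and 108 in MYC-KI. In both genes the genotypes overlapped. The log2 fold changes were 0.47 for *Krtdap* (standard error 0.63, adjusted p = 0.646) and 0.32 for *Sbsn* (standard error 0.65, adjusted p = 0.770) from edgeR. Without MYC-KI replicate 2 they were -0.52 and -0.90, and without replicate 1 they were 1.06 and 0.97. Part of *Sbsn* overlaps the annotated gene *Tmem147os* on the same strand, and *Trp63* overlaps 2 predicted genes, whose reads could be shared.

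Between genes, levels were compared per kilobase of exon. In WT *Krtdap* (176 ± 86.4 CPM per kilobase, SD, n = 2), *Lor* (171 ± 54.6), *Sprr3* (154 ± 54.2) and *Sprr1a* (121 ± 4.6) were highest, and the means of these 4 neighbours did not differ beyond their spread. *Lor* was nevertheless above *Sprr3* in each of the 4 libraries and above *Sprr1a* in both WT libraries. *Sbsn* followed at 15.3 ± 4.83 CPM per kilobase. *Dsg3* (2.89 ± 1.05), *Dsc3* (2.64 ± 0.763), *Sprr1b* (2.26 ± 1.42), *Trp63* (2.06 ± 0.812) and *Ivl* (1.84 ± 0.778) were lowest, each mean within the spread of its neighbours. Within single libraries, *Dsg3* was above *Dsc3*, *Sprr1b* and *Trp63* in each of the 4 and above *Ivl* in both of WT. In both WT libraries *Dsc3* was also above *Trp63*, and *Trp63* above *Ivl*. In MYC-KI the same 4 genes were highest, from 159 ± 71.6 CPM per kilobase for *Sprr1a* to 245 ± 173 for *Krtdap*, and *Sprr1b* was lowest at 1.88 ± 2.26. The mean of *Ivl*, last in WT, was 6.16 ± 1.84 CPM per kilobase in MYC-KI.

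The genes whose centred log2 CPM over the 4 libraries lay nearest to the median profile of the 10 genes were *Nccrp1*, *Fam25c*, *Bpifc*, *Egr3* and *Pla2g4f*. They differed from it by a mean of 0.057 to 0.076 on the log2 scale per library, among 17491 genes outside the lists used here. Of the 10 genes, *Dsc3* (0.11), *Krtdap* (0.11) and *Sbsn* (0.14) were nearest to that profile, and *Sprr1b* (0.69) and *Ivl* (0.89) farthest. *Nccrp1* had 22.0 and 14.7 CPM in WT and 14.9 and 40.0 in MYC-KI, and none of the 5 genes was called.

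Other genes of squamous differentiation were read in the same fit, in 4 lists with 91 genes in the table, of which 83 were tested. Only *Sprr2a3*, *Sprr2a1* and *Pkp2* were called, all of them higher, and 0 were called lower, with a median log2 fold change of 0.16 over the 83. Of all tested genes 5.65% were called higher and 5.08% lower. At an unadjusted p under 0.05 edgeR gave 8 higher and 1 lower of the 83, below the 34.1% of all tested genes, and DESeq2 called 6 higher and 0 lower, where it called 8.38% of all genes higher. MYC-KI replicate 2 was the highest library for 68 of these 83 genes and MYC-KI replicate 1 the lowest for 66, against 22.8% and 29.7% of all tested genes. The number of calls and their direction changed with the transgenic library that was left out, in fits that set 1 MYC-KI library against the WT pair. Without MYC-KI replicate 2, 19 of the 84 genes then in the fit were called lower, among them *Flg*, *Hrnr*, *Rptn* and 10 *Lce* genes of the late envelope, and 4 were called higher. Of all genes in that fit 7.69% were called lower and 5.82% higher. Without MYC-KI replicate 1, 12 of 85 were called higher, with *Krt5*, *Krt14*, *Krt6a*, *Krt6b*, *Krt16* and *Col17a1* among them, and 0 lower, while 4.2% of all genes were called higher and 4.48% lower. *Sprr2a1*, *Sprr2a3*, *Pkp2* and *Ly6d* were called higher in both of these fits.

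Of 35 tested genes from the rest of the epidermal differentiation complex, 2 were called higher, near the 5.65% of all tested genes. Their median log2 fold change was -0.21. *Sprr2a3* had 319 and 380 CPM in WT and 3052 and 2986 in MYC-KI, with no overlap between the genotypes, and edgeR put the difference at 3.11 on the log2 scale (standard error 0.14, adjusted p = 0.00953). *Sprr2a1* had 527 and 526 CPM in WT and 1471 and 2065 in MYC-KI (log2 fold change 1.75, standard error 0.19, adjusted p = 0.0213 from edgeR). *Sprr2a1*, *Sprr2a2* and *Sprr2a3* are nearly identical copies, and how the counting split their reads is not given in the sources used here. Their summed level was 931 and 987 CPM in WT and 4638 and 5161 in MYC-KI, 5.11-fold higher. MYC-KI replicate 2 stood at 0.978 times replicate 1 for *Sprr2a3* and at 1.40 times for *Sprr2a1*. Without either WT library neither was called (adjusted p = 0.196 to 0.236 from edgeR).

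None of the 22 genes of envelope assembly was called (median log2 fold change 0.23), and MYC-KI replicate 2 was the highest library for all 22. *Dmkn*, which encodes dermokine, had 219 and 119 CPM in WT and 88.0 and 307 in MYC-KI. *Asprv1*, whose protease processes filaggrin, had 226 and 139 in WT and 58.6 and 307 in MYC-KI. At an unadjusted p under 0.05 edgeR gave 2 genes of this list, both higher, and DESeq2 called 2 higher, *Tgm5* and *Ly6d*. Of 11 other desmosome genes, *Pkp2*, a plakophilin that is also found in simple epithelia, rose from 39.9 ± 1.80 to 67.2 ± 3.53 CPM (SD, n = 2 each), a log2 fold change of 0.75 (adjusted p = 0.0232 from edgeR). The widely expressed *Dsp* and *Jup* had log2 fold changes of -0.24 and -0.22 (adjusted p = 0.451 and 0.384 from edgeR). None of the 15 squamous layer markers was called by edgeR (1 higher at an unadjusted p under 0.05), and DESeq2 called *Krt16* higher. *Krt13* stood at 886 and 512 CPM in WT and 223 and 1368 in MYC-KI, and *Krt1* at 625 and 459 in WT and 429 and 1137 in MYC-KI. Of 17 regulators of squamous differentiation 1 was called higher, *Klf5*, a factor of dividing epithelial cells, near the 5.65% of all tested genes. *Klf5* rose from 123 ± 6.93 to 262 ± 12.1 CPM (log2 fold change 1.09, adjusted p = 0.0176 from edgeR). With the replicate number as a block it was not called (1.09, adjusted p = 0.0541 from edgeR). At an unadjusted p under 0.05 edgeR gave 5 of the 17, all higher, near the share of all tested genes (34.1%), and DESeq2 called 4 higher, *Klf5*, *Zfp750*, *Tfap2c* and *Pitx1*. *Klf4*, a factor of terminal differentiation, had 639 and 616 CPM in WT and 308 and 513 in MYC-KI (log2 fold change -0.61, adjusted p = 0.186 from edgeR). *Sfn* had a log2 fold change of 0.57 (adjusted p = 0.170 from edgeR).

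**Figure D2:**
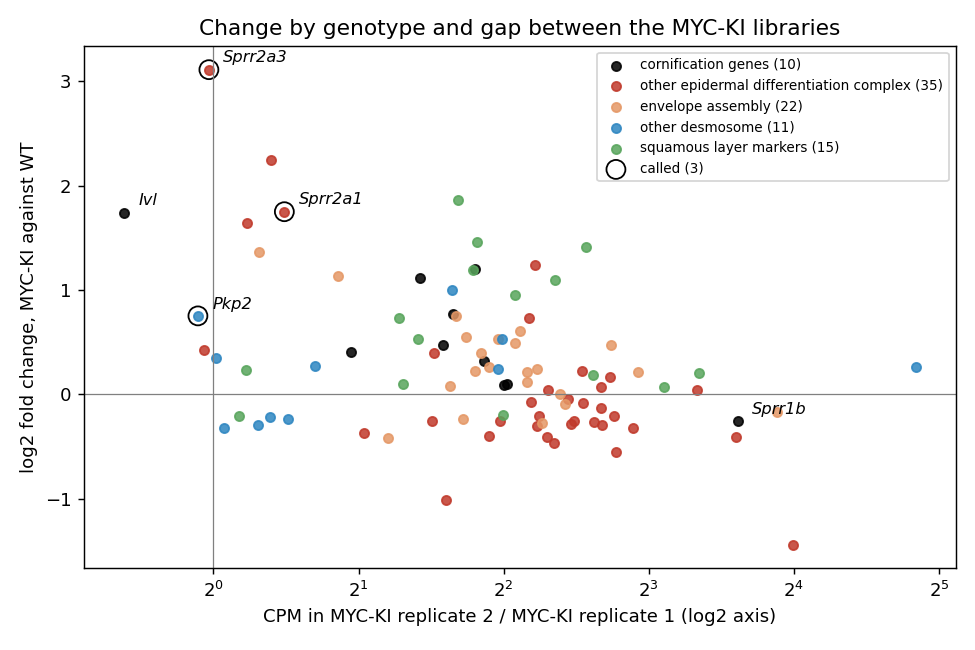
Log2 fold change of MYC-KI against WT (vertical axis) against the ratio of CPM in MYC-KI replicate 2 to replicate 1 (horizontal log2 axis) for the tested cornification genes and the 83 genes of 4 related lists, 1 point per gene, with called genes ringed. The called genes lie at ratios of 0.928 (*Pkp2*), 0.978 (*Sprr2a3*) and 1.40 (*Sprr2a1*) and *Ivl* at 0.651, while 75 of the 93 points lie at a ratio above 2, with fold changes on both sides of 0.

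To relate each library to its own squamous tissue, the 10 genes were also set against *Krt5* and *Krt14*, the keratins of the basal squamous layer, in the same library. *Krt5* and *Krt14* together had 315 and 203 CPM in WT and 282 and 979 in MYC-KI. The summed CPM of the 10 genes was 3.19 and 3.17 times that of the keratins in WT and 1.69 and 1.58 times in MYC-KI. The means, 3.18 ± 0.0171 and 1.64 ± 0.0794 (SD, n = 2 each), differ by a factor of 0.515, more than the spread within either genotype. Within a genotype the members and the keratins differed between libraries by similar factors, 1.57-fold and 1.55-fold in WT, and 3.24-fold and 3.47-fold in MYC-KI. The exact two-sided permutation test, the one used for a single value, cannot give a p below 0.333 with 2 libraries against 2, and the ratio is given without a test. The ratio was lower in MYC-KI than in both WT libraries for 7 of the 10 genes, above for 0, and overlapped for *Trp63*, *Sprr1a* and *Ivl*. Among the 7, *Dsg3* was lower by a small margin, with 7.36 CPM per 100 CPM of the keratins in the higher MYC-KI library and 7.40 in the lower WT library. Of all tested genes 37.6% were lower by this measure and 1.08% higher, and the keratins had a higher mean CPM in MYC-KI than in WT.

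The ratio of the MYC-KI to the WT mean differed from gene to gene. Per 100 CPM of *Krt5* and *Krt14*, *Lor* had 119 and 117 CPM in WT and 45.9 and 53.7 in MYC-KI. *Sprr3* had 74.7 and 69.9 in WT and 28.3 and 32.6 in MYC-KI. *Sbsn* had 21.5 and 21.2 in WT and 10.6 and 11.1 in MYC-KI. These 3 genes stood at 0.423, 0.421 and 0.506 times the WT mean. *Krtdap* (0.612) and *Dsc3* (0.719) were lower by less. *Trp63* had 7.02 and 6.16 in WT and 7.23 and 5.59 in MYC-KI, and *Dsg3* had 8.04 and 7.40 in WT and 7.32 and 7.36 in MYC-KI, so their means were 0.972 and 0.951 times the WT mean. *Sprr1a* had 30.04 and 49.3 in WT and 31.1 and 17.3 in MYC-KI, with MYC-KI replicate 1 between the WT libraries and a mean at 0.61 times WT. *Sprr1b*, from few counts, had 0.861 and 0.513 in WT and 0.0837 and 0.295 in MYC-KI, at 0.275 times the WT mean. *Ivl* had 1.46 and 1.22 in WT and 5.08 and 0.953 in MYC-KI, so that by this measure MYC-KI replicate 1 was above and replicate 2 below both WT libraries and the mean was 2.25 times that of WT.

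**Figure D3:**
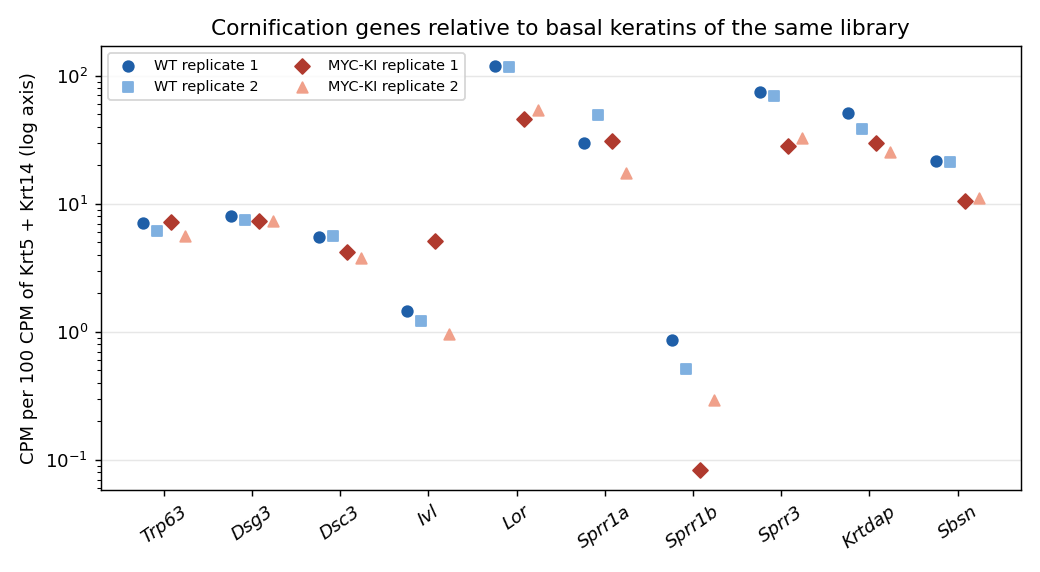
CPM of each gene per 100 CPM of *Krt5* and *Krt14* in the same library (log axis), 1 point per library. The *Lor*, *Sprr3* and *Sbsn* points of both MYC-KI libraries lie well under both WT points, those of *Trp63* and *Dsg3* lie close together in the 4 libraries, and the *Ivl* points of MYC-KI (5.08 and 0.953) lie far apart.

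By the same measure, 29 of 35 genes of the rest of the epidermal differentiation complex and 20 of 22 of envelope assembly were lower in both MYC-KI libraries than in both WT libraries, against the 37.6% of all tested genes, with median ratios of MYC-KI to WT of 0.334 and 0.474. In the first list *Sprr2a3* was above, at 4.8 times WT without overlap, and *Sprr2a1* stood at 1.72 times with overlap. Per 100 CPM of the keratins *Sprr2a3* had 101 and 188 CPM in WT and 1083 and 305 in MYC-KI. Its own CPM in MYC-KI replicate 2 was 0.978 times that in replicate 1, while the keratins were 3.47-fold higher there. The ratio of this gene thus varied with the keratins, and its mean rests mostly on MYC-KI replicate 1. Of other desmosome genes 9 of 11 were lower (median ratio 0.476) and of squamous regulators 8 of 17 (0.616). Of lists of other tissues, 8 of 8 smooth muscle genes were lower (median ratio 0.312), as were 3 of 7 leukocyte genes (0.547) and 0 of 7 skeletal muscle genes (1.49). Of glandular lists, 8 of 8 parietal (0.0378), 4 of 5 chief cell (0.0299) and 4 of 7 mucous genes (0.21) were lower. The median ratio was 0.611 over the 10 cornification genes and 0.626 over 13 squamous layer markers other than *Krt5* and *Krt14*, of which 10 were lower, and it was 0.57 over all tested genes. The median cornification gene was thus not lower than the median of all genes by this measure, and the factor of 0.515 is a ratio of sums, in which abundant genes such as *Lor* and *Sprr3* weigh most. Against *Krt13* and *Krt4*, keratins of the suprabasal layers, the sum of the 10 genes was 0.596 and 0.708 in WT and 1.35 and 0.621 in MYC-KI, so the genotypes overlapped and the mean was 1.51 times WT. *Krt13* and *Krt4* together had 1685 and 905 CPM in WT and 354 and 2491 in MYC-KI.

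Markers of other tissues also differed between the MYC-KI libraries. The 8 smooth muscle genes summed to 5090 to 8000 CPM in WT and to 2632 and 5575 in MYC-KI, with *Myh11* at 2636 and 1691 CPM in WT and 778 and 1797 in MYC-KI, and *Acta2* at 1565 and 974 in WT and 479 and 963 in MYC-KI. The 8 skeletal muscle genes, listed for the striated muscle that the adjoining oesophagus holds, summed to 155 and 119 CPM in WT and to 40.4 in MYC-KI replicate 1 and 1315 in replicate 2. Of these, *Acta1* had 51 counts in MYC-KI replicate 1 and 23057 in replicate 2, *Myh1* had 4 and 16801, *Ckm* had 475 and 8621, and *Myh2* had 0 counts in replicate 1. *Tnni2* (23.4 CPM) and *Ckm* (14.0 CPM) made up most of the sum in replicate 1, where *Tnni2* was above both WT libraries. All 8 skeletal muscle genes were highest in MYC-KI replicate 2, as were 9 of the 10 cornification genes, and 0 of the 7 tested were called by edgeR (0 at an unadjusted p under 0.05) and 1, *Tnni2*, by DESeq2. The share of oesophagus or forestomach in each sample and its part in these results was not tested. Of 9 hair keratin genes in the table, none had more than 3 counts in any library, a level that a count of 0 allows.

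Most glandular markers were lower in both MYC-KI libraries. All 8 parietal cell genes were called lower, with the largest fold changes in *Atp4b*, *Atp4a*, *Kcne2* and *Aqp4*, and their sum was 11520 and 11650 CPM in WT and 438 and 519 in MYC-KI. Of 5 tested chief cell genes 4 were called lower (*Chia1*, *Pgc*, *Gif* and *Bhlha15*), the list summing to 80510 to 84850 CPM in WT and to 1198 and 1518 in MYC-KI. Of 7 surface and neck mucous genes 4 were called lower (*Muc5ac*, *Gkn2*, *Gkn1* and *Tff1*), with sums of 56830 and 68400 against 36470 and 27890 CPM. The other 3, *Gkn3*, *Tff2* and *Muc6*, were not called, had log2 fold changes of 0.73, 0.53 and 0.13, and were each highest in MYC-KI replicate 1. *Atp4a*, *Atp4b*, *Pgc*, *Muc5ac* and *Muc6* had reads in each library, and so did the leukocyte marker *Ptprc*. The 8 leukocyte genes summed to 178 and 186 CPM in WT and to 79.9 and 75.1 in MYC-KI, most of it *Lyz2*, which had 139.6 and 138.9 CPM in WT and 45.0 and 47.1 in MYC-KI. *Lyz2* and *Itgam* were called lower, while *Ptprc* had a log2 fold change of -0.04 (adjusted p = 0.943 from edgeR) and the median of the 7 tested genes was -0.18. CPM are shares of a library, and the part of these lower glandular counts in the squamous values was not tested.

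**Figure D4:**
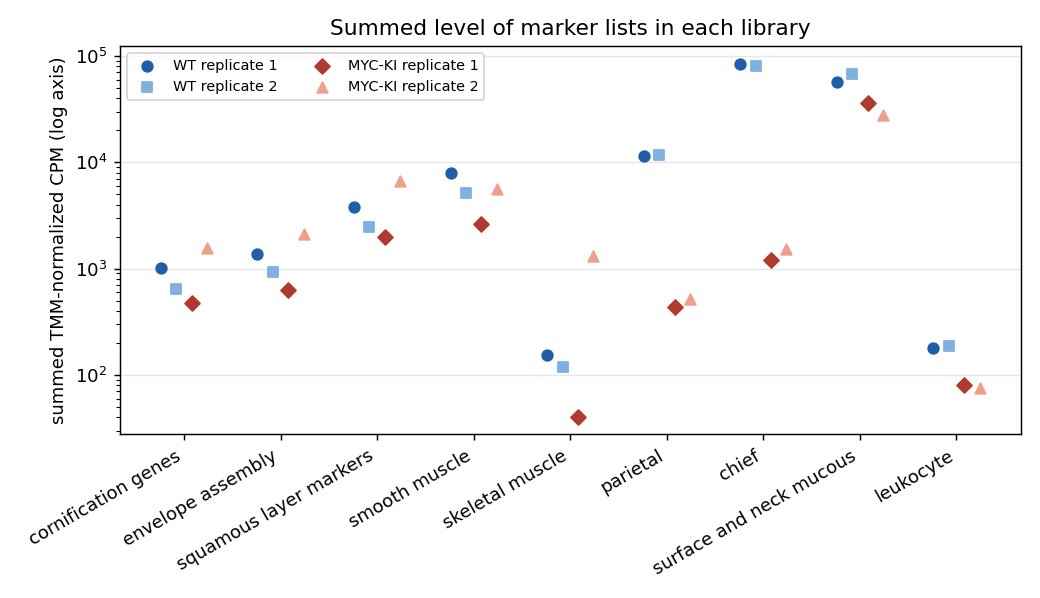
Summed TMM-normalized CPM (log axis) of marker lists in each library, 1 point per library. The sums of the cornification genes, envelope assembly, squamous layer markers, smooth muscle and skeletal muscle are each lowest in MYC-KI replicate 1, while the parietal and chief cell sums of both MYC-KI libraries lie far under both WT libraries.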

How the data were processed

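Stomach RNA of 2 WT and 2 *Atp4b-cre; MycOE* mice was analysed. The authors deposited 1 table of raw counts per gene symbol without normalization, and the submitters' processing notes name HISAT2 and mm10, while the counting tool, its use of strand and the annotation are not given in the sources used here. Columns were mapped to samples by name. The counts of both MYC-KI columns were re-assigned in row order to the names sorted by character code, of which 3109 keep their place. Replicates differed by more than counting noise (chi-square per degree of freedom 31.1 in WT and 105.9 in MYC-KI), and p-values measure the spread between these samples, which the labels do not tie to separate litters or preparations.

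The genotypes were compared in R 4.3.3 by glmQLFit and glmQLFTest of edgeR 4.0.16 after filterByExpr and TMM scaling, with Benjamini-Hochberg adjustment over all genes tested. Calls required an adjusted p below 0.05 and a change of about 1.5-fold or more, the study's own thresholds. Standard errors are the absolute log2 fold change over the root of F. DESeq2 1.42.0, other normalizations and filters, a replicate block, a log2 threshold of 1, the deposited row order and leaving out each library were alternatives. Positions are from GENCODE M21 and promoters from RefSeq. Intervals of counting error are not given, and a count of 0 allows up to 3 counts. The 10 genes and the lists were chosen with earlier results of these data known. All 10 genes are described. Of each other list at most 4 called genes of largest fold change are named, or, where fewer than 2 were called, the 2 of highest mean CPM, together with defining markers such as *Muc6*, *Ckm* and *Ptprc*, and any further names were picked with their values in view. The likeness measure is the mean absolute difference of log2(CPM + 0.1), centred on each gene's mean. The study's other assays (RT-qPCR, protein blots, histology) were left aside.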

Additional observations from a re-analysis of the deposited data

How the results depend on the processing

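The number of cornification genes called was 0 in the edgeR fit and 1, *Ivl*, with DESeq2, with scaling by library totals alone and without the filter on low counts. Leaving out 1 library gave 0 to 2. For the 4 related lists the count of 3 became 6 with DESeq2, 6 with library size, 5 without the filter, 1 with the replicate number as a block and 0 to 23 when 1 library was left out. Over all genes 1892 were called, against 3232 with DESeq2, 3011 with library size, 114 with the replicate block, 1113 at a log2 threshold of 1, and 0 to 2470 when 1 library was left out. Library size raised the median log2 fold change of all genes from 0.012 to 0.23. Its calls were 2272 higher and 739 lower, against 996 and 896 with TMM. The fits without a WT library, which assume that the lone WT sample varies like the transgenic pair, made 0 calls. The replicate numbers were not shown to pair the samples (correlation 0.067 over genes between the differences of same-numbered libraries), and with the replicate block *Sprr3* stood at -0.19 and *Lor* at -0.19 (log2). When each library was left out in turn, log2 fold changes ran from -0.15 to 0.80 for *Sprr1a*, from -2.98 to 0.62 for *Sprr1b*, from -1.24 to 0.76 for *Sprr3*, from -1.24 to 0.79 for *Lor*, from -0.28 to 1.37 for *Dsc3*, from -0.52 to 1.09 for *Krtdap* and from -0.90 to 0.97 for *Sbsn*. They ran from 0.24 to 1.66 for *Trp63* and from 0.034 to 1.84 for *Dsg3*. In the row order as deposited 18580 genes, 8 of the 10 cornification genes and 65 of the related genes were called, and the fitted values of *Trp63* (-12.2), *Lor* (-16.3), *Sprr1a* (-4.00), *Sprr1b* (6.02), *Sprr3* (-3.04) and *Krtdap* (-2.29) changed sign. Those of *Trp63* and *Lor* are set against 0 counts and are no bounds. Relative to *Krt5* and *Krt14* the summed level in MYC-KI was 0.515 of WT, against 1.51 with *Krt13* and *Krt4*. Chosen after seeing the data, *Krt5* alone gave 0.545, *Krt14* alone 0.461 and *Col17a1* alone 0.698. Unless the construction of a fit shows it, the cause was not tested.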
